A study of Saccharomyces cerevisiae with 6 samples.

Results

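The genes that carry glycerol into the yeast cell, break it down and make it were compared between the root and aerial cells of colony biofilms. They were taken as a list of 10 genes by systematic name, and all 10 were found among the 6558 protein-coding loci of the table of counts, which holds 10239 loci in all with long noncoding RNA (lncRNA) loci included. The members are the transport genes STL1 and FPS1, the glycerol use genes GUT1 and GUT2, the synthesis genes GPD1, GPD2, GPP1 and GPP2, and GCY1 and DAK1 of the route through dihydroxyacetone. The rule that picks them uses no measured value, but the members were chosen with earlier results of these data known. RNA was sequenced from 3 root and 3 aerial samples of BR-F, a wild diploid strain of S. cerevisiae that forms structured biofilm colonies. Root samples held the invasive cells that had grown through a membrane into the agar, pelleted with traces of that agar, and aerial samples held the cells above the membrane. Both came from colonies of the same unmodified strain, 3 days old, grown at 28 °C on 3% glycerol, 1% yeast extract and 0.3% agar, so that glycerol was the main carbon source supplied to either cell type. Aerial cells were frozen at once after harvest, whereas root cells were mixed, vortexed and centrifuged out of the agar before freezing. Effects of this handling cannot be told apart from those of cell type. Each sample pooled many colonies, and the study describes the samples of a cell type as independent biological replicates.

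As background, glycerol enters S. cerevisiae mainly by proton symport through Stl1 and can leave or enter by diffusion through the channel Fps1. Inside the cell it is phosphorylated by the glycerol kinase Gut1 and oxidized at the mitochondrial membrane by the FAD-dependent dehydrogenase Gut2, which gives dihydroxyacetone phosphate for gluconeogenesis and glycolysis. Synthesis runs the opposite way, from dihydroxyacetone phosphate through the NAD-dependent dehydrogenases Gpd1 and Gpd2 and the phosphatases Gpp1 and Gpp2, and is known for its roles in osmotic adjustment and in the reoxidation of NADH.

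The 6 libraries held between 13764726 and 17095539 counts on loci. Aerial libraries differed more from each other than root libraries did, with a chi-square per degree of freedom of 23.7 to 36.4 for pairs of root libraries and 115 to 287 for pairs of aerial libraries. The share of counts on lncRNA loci was 3.74 to 5.1% in root libraries and 2.52 to 8.18% in aerial libraries, with both ends of the aerial range set by aerial replicates 2 and 1. Here lncRNA loci were those whose name lacks the form of a systematic gene name. The paper reports a larger share of mapped reads on lncRNA loci in both cell types, and the reason for the gap was not tested. Of the genes that the study probed as markers, all 6 root markers were higher in root and both aerial markers were lower in root. VMA1, probed as a control, was higher in every root library than in any aerial one but did not pass the test (log2 fold change 0.49, adjusted p = 0.168). The study chose these genes on the same libraries, so they check the labels only in part. Levels below are in CPM, counts per 1000000 of the library size that was normalized by TMM (trimmed mean of M-values), and fold changes are given as log2 of root over aerial with the standard error (SE) and the p-value of edgeR's quasi-likelihood F test, adjusted by Benjamini-Hochberg over the 7971 loci tested. In these bulk samples, fewer cells that express a gene and less of its RNA per cell cannot be told apart.

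Glycerol genes moved in both directions between root and aerial cells. The phosphatase genes GPP1 and GPP2 and the channel gene FPS1 were higher in root, while the dehydrogenase gene GPD1 was lower in root. These 4 of the 10 members had an adjusted p below 0.05, 3 of them higher and 1 lower in root. Among the 5873 protein-coding loci tested, 35.1% passed the same threshold, 18.2% higher and 16.9% lower in root, so the share of members in this fit is close to the background. By DESeq2 6 members passed, 3 higher and 3 lower, where 36.7% of protein-coding loci passed. With library sizes alone 2 were higher and 3 lower, where 30.3% of protein-coding loci passed. No member had both an adjusted p below 0.05 and a fold change of at least 2, which 21.2% of protein-coding loci had (12.1% higher and 9.13% lower in root). By DESeq2 this count was also 0, and 6 members had an unadjusted p below 0.05 in edgeR, as did 47.1% of protein-coding loci. CPM did not overlap between the cell types for 7 members, against 52.6% of protein-coding loci. The median log2 fold change of the members was 0.01, with a range from -0.94 to 0.96, and that of all protein-coding loci was -0.03. Together the members took 0.508, 0.506 and 0.461% of counts in root replicates 1, 2 and 3 and 0.512, 0.433 and 0.531% in aerial replicates 1, 2 and 3, so that their summed share overlapped between the cell types.

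**Figure D1:**
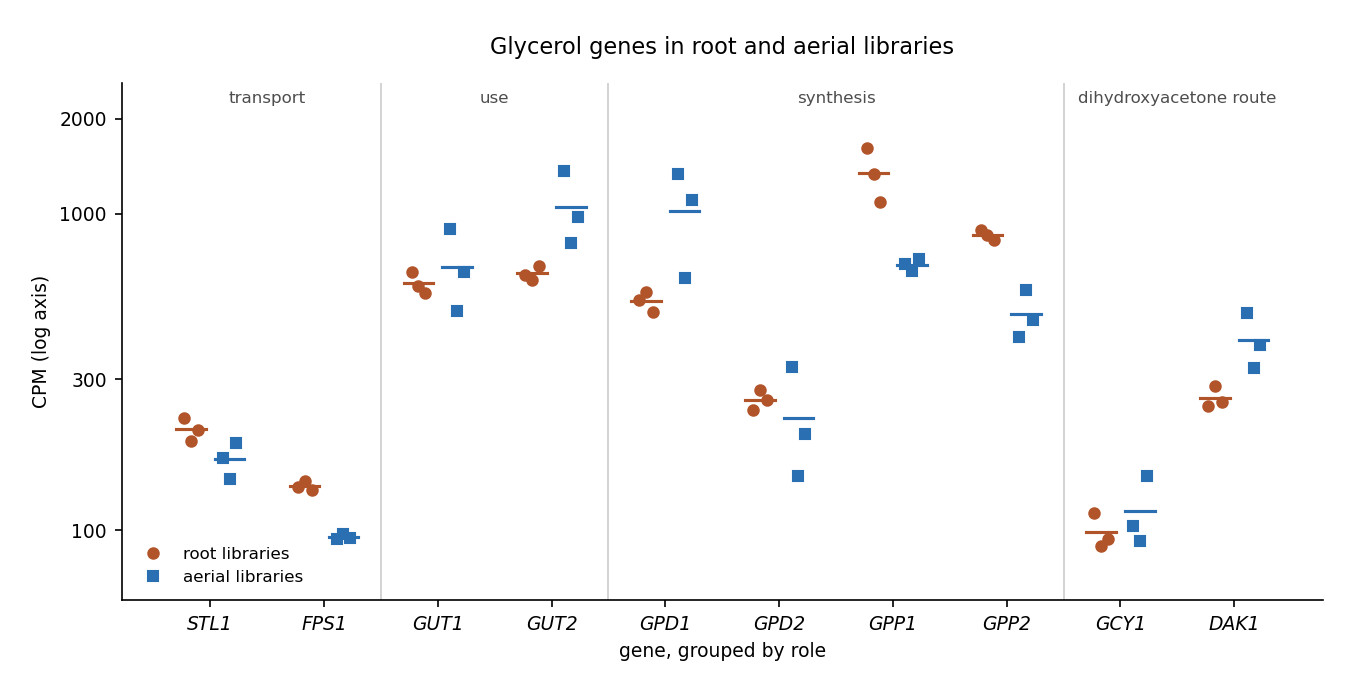
CPM of the 10 glycerol genes on a log axis, grouped by role, in the 3 root libraries (circles) and the 3 aerial libraries (squares), left to right in the order of replicates 1, 2 and 3, with a line at the mean of each cell type. Root libraries lie above all aerial libraries for STL1, FPS1, GPP1 and GPP2 and below all of them for GUT2, GPD1 and DAK1, and the cell types overlap for GUT1, GPD2 and GCY1.

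**Figure D2:**
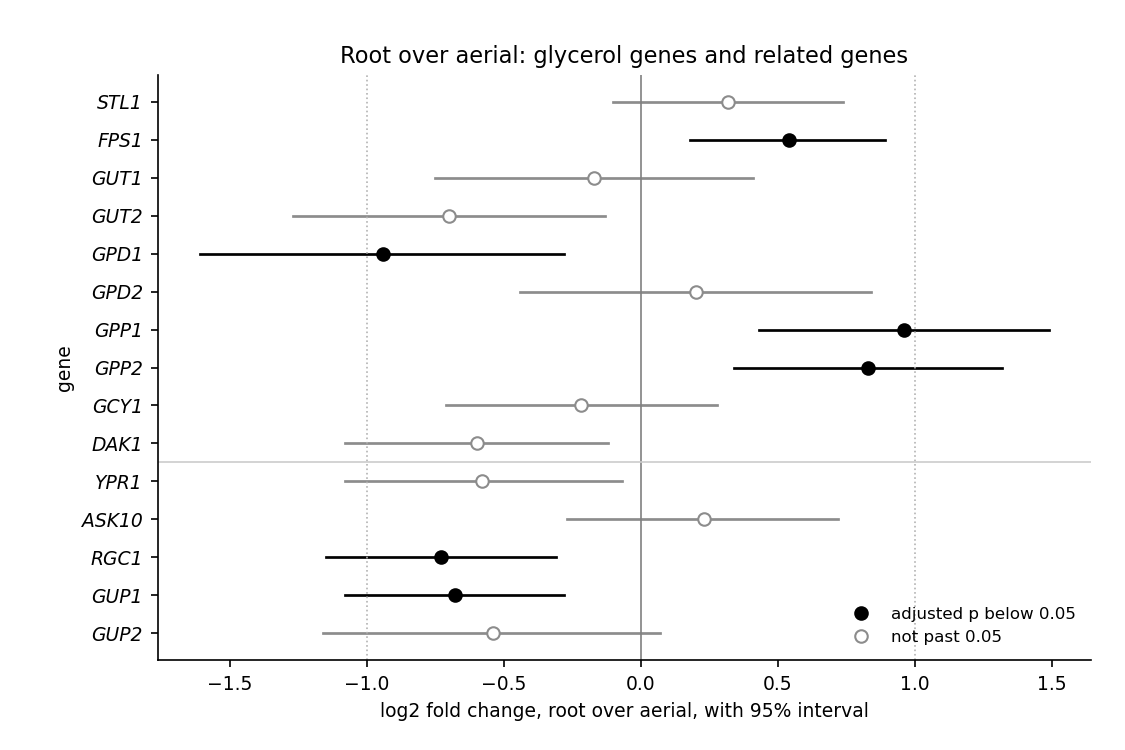
Log2 fold change, root over aerial, with its 95% interval for the 10 glycerol genes (above the grey line) and the 5 tested genes of the list of other glycerol genes (below it). Filled points have an adjusted p below 0.05, and dotted lines mark a fold change of 2 in either direction, which no point estimate reaches.

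Transport was represented by STL1 (YDR536W, chromosome IV, positions 1508005 to 1509714 of the R64 genome, forward strand) and FPS1 (YLL043W, chromosome XII, 49938 to 51947, forward strand). STL1, the glycerol and proton symporter, had 227, 192 and 207 CPM in root replicates 1, 2 and 3 and 169, 145 and 188 CPM in aerial replicates 1, 2 and 3. Every root library was above every aerial one, with the lowest root library at 192 CPM and the highest aerial library at 188 CPM. The log2 fold change was 0.32 ± 0.19 (SE), with a 95% interval from -0.10 to 0.74 and an adjusted p of 0.222, so a difference in STL1 did not pass the test. FPS1, the aquaglyceroporin through which glycerol is released, had 137, 143 and 134 CPM in root libraries and 93.5, 97.4 and 94.4 CPM in aerial libraries. Its replicates were the closest of any member in both cell types and the cell types did not overlap. FPS1 was 1.45-fold higher in root (log2 fold change 0.54 ± 0.16, adjusted p = 0.0301). The adjusted p of FPS1 was 0.111, 0.0874 and 0.0793 without root replicates 1, 2 and 3 and 0.0541 without aerial replicate 3, while the fold change stayed between 0.53 and 0.61 on the log2 scale.

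Glycerol use was represented by GUT1 (YHL032C, chromosome VIII, 36379 to 38508, reverse strand), the glycerol kinase, and GUT2 (YIL155C, chromosome IX, 51759 to 53708, reverse strand), the mitochondrial glycerol 3-phosphate dehydrogenase. GUT1 had 657, 593 and 564 CPM in root replicates 1, 2 and 3 and 895, 492 and 655 CPM in aerial replicates 1, 2 and 3. All 3 root libraries lay between the lowest and the highest aerial library. Its log2 fold change was -0.17 ± 0.26, with a 95% interval from -0.75 to 0.41 (adjusted p = 0.642), and the sign depended on aerial replicate 1, without which the log2 fold change was 0.08. GUT2 had 643, 618 and 685 CPM in root libraries and 1372, 808 and 976 CPM in aerial libraries, with no overlap between the cell types. The log2 fold change of GUT2 was -0.70 ± 0.25 (adjusted p = 0.0625), which did not pass the threshold in edgeR. It passed in DESeq2 (-0.69, adjusted p = 0.0243), and without aerial replicate 2, the lowest of the aerial libraries, it was -0.86 (adjusted p = 0.0172). Within a library the ratio of GUT1 to GUT2 counts was 1.02, 0.959 and 0.823 in root replicates 1, 2 and 3 and 0.652, 0.608 and 0.671 in aerial replicates 1, 2 and 3, so kinase reads were closer in number to dehydrogenase reads in root. This ratio was chosen after the values had been seen and was not tested.

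Sequence around the start codon is shown for GUT1 because, alone among the members, its window held all 3 of the motifs searched. Windows ran from 250 bases before the start codon to 50 bases into the coding sequence and were read from R64, the build to which the authors mapped, and the BR-F genome may differ from it. The motifs were the stress response element AGGGG, the E-box core CATGTG of the inositol-responsive element, and the Adr1-type sites TTGGAG or TTGGGG, each on both strands, and capitals mark their matches. The window of GUT1 was chrVIII:38459-38758, printed from the reverse strand. Its last match, CTCCAA, is an Adr1-type site on the opposite strand that lies inside the coding sequence, after the start codon.
GUT1: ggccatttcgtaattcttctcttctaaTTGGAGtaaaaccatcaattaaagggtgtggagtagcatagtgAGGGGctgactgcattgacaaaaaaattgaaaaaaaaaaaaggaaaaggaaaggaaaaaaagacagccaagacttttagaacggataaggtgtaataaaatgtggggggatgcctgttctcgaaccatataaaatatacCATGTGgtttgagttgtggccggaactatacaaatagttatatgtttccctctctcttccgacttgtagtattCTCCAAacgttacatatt

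Among all 6001 such windows of the genome, 21.6% held AGGGG, 6.93% held CATGTG and 16.4% held an Adr1-type site. AGGGG was found in the windows of 5 members, STL1, GUT1, GUT2, GPD1 and GPD2, and the other motifs only in that of GUT1. In the 600 bases before the start codon, AGGGG was found for 7 members (39.7% of 5999 genes with such a stretch), CATGTG for GUT1 and GPD2 (16.4%), and an Adr1-type site for STL1, GUT1 and GPP2 (32.1%). A match of letters is a description and shows no binding.

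Of the synthesis genes, GPD1 was lower and both phosphatase genes were higher in root, while GPD2 did not pass the test. For the first step, GPD1 (YDL022W, chromosome IV, 411825 to 413000, forward strand), the isozyme known for induction by osmotic stress, had 535, 568 and 491 CPM in root libraries and 1338, 627 and 1105 CPM in aerial libraries. All aerial libraries were above all root libraries, with aerial replicate 2 nearest to root. GPD1 was lower in root, by a log2 fold change of -0.94 ± 0.29 (adjusted p = 0.0374), or 1.93-fold higher in aerial. The call was lost when any library but aerial replicate 2 was left out. The adjusted p was 0.12, 0.114 and 0.157 without root replicates 1, 2 and 3 and 0.0739 and 0.0882 without aerial replicates 1 and 3. Without aerial replicate 2 the log2 fold change was -1.20 (adjusted p = 0.00264), past a fold change of 2. GPD2 (YOL059W, chromosome XV, 217126 to 218448, forward strand), the isozyme known for induction without oxygen, had 240.2, 278 and 258 CPM in root libraries and 327, 148 and 202 CPM in aerial libraries, the root values lying within the aerial range. Its log2 fold change was 0.20 ± 0.28, with a 95% interval from -0.44 to 0.84 (adjusted p = 0.624), and was -0.03 without aerial replicate 2.

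For the second step, GPP1 (YIL053W, chromosome IX, 255115 to 255867, forward strand), a glycerol 3-phosphate phosphatase, had 1614, 1341 and 1089 CPM in root replicates 1, 2 and 3 and 694, 661 and 721 CPM in aerial replicates 1, 2 and 3. It was the member with most counts in each root library, and its root libraries did not overlap with the aerial ones. GPP1 was 1.95-fold higher in root (log2 fold change 0.96 ± 0.23, adjusted p = 0.0146). The adjusted p was 0.08 without root replicate 1, the highest library, and the log2 fold change was 1.01 without root replicate 2 and 1.15 without root replicate 3, which put GPP1 past a fold change of 2. GPP2 (YER062C, chromosome V, 279930 to 280682, reverse strand), the isozyme known for induction by osmotic stress, had 891, 857 and 829.8 CPM in root libraries and 409, 575 and 463 CPM in aerial libraries. These did not overlap either, and the root libraries were close to each other. GPP2 was 1.78-fold higher in root (log2 fold change 0.83 ± 0.22, adjusted p = 0.0191), and its adjusted p was 0.0815, 0.0554 and 0.0552 without root replicates 1, 2 and 3.

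Because GPP1 and GPP2 are close copies, reads could in principle be split between them. Their coding sequences were 83.2% identical, the highest of the 4 pairs of paralogs compared, and the longest run of bases that they share is shown in capitals with 10 bases on each side, at chrIX:255174-255219 for GPP1 and chrV:280578-280623 on the reverse strand for GPP2.
GPP1: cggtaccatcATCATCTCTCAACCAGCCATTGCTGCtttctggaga
GPP2: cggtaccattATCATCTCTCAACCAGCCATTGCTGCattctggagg

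The shared run was 26 bases long, shorter than the 100 bases of a read, and none of the 654 stretches of 100 bases in either coding sequence occurred elsewhere in R64. The same held for the other 8 members. When the counts of GPP1 and GPP2 were summed into 1 locus, the log2 fold change was 0.91 (adjusted p = 0.0192). The windows at the starts of GPD1 and GPP2 are shown because these genes of the same pathway changed in opposite directions. GPD1 has a match to AGGGG on the opposite strand, read here as CCCCT in capitals, and neither phosphatase gene has a match to any motif searched in this window. In the 600 bases before the start codon, however, GPP2 has 1 match to AGGGG and 1 Adr1-type site. AGGGG also lies in the start windows of STL1, GUT1, GUT2 and GPD2, which did not pass the edgeR test. A link between motif and direction was not tested. The windows were chrIV:411575-411874 for GPD1 and chrV:280633-280932 on the reverse strand for GPP2.
GPD1: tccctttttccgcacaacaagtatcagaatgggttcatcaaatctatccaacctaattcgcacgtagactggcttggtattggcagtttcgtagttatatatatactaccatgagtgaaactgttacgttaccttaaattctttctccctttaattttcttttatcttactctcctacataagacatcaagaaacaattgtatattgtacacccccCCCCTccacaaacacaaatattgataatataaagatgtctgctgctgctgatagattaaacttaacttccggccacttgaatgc
GPP2: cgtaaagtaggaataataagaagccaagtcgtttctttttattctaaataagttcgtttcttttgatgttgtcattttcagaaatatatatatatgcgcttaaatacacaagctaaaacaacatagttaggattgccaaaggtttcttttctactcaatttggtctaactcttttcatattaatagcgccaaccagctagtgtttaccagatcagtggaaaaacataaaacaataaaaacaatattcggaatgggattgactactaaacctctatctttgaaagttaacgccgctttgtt

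The route through dihydroxyacetone was represented by GCY1 (YOR120W, chromosome XV, 551114 to 552052, forward strand), a glycerol dehydrogenase of the aldo-keto reductase family, and DAK1 (YML070W, chromosome XIII, 133475 to 135229, forward strand), a dihydroxyacetone kinase. GCY1 had 113, 88.8 and 93.5 CPM in root libraries and 103, 92.7 and 148 CPM in aerial libraries, which overlapped. Its log2 fold change was -0.22 ± 0.22 (95% interval -0.71 to 0.28, adjusted p = 0.479) and was 0.01 without aerial replicate 3. DAK1 had 247, 286 and 255 CPM in root libraries, all below the aerial libraries at 485, 325 and 386 CPM. The log2 fold change was -0.60 ± 0.21 (adjusted p = 0.058), short of the threshold in edgeR. DAK1 passed in DESeq2 (-0.60, adjusted p = 0.0416) and without aerial replicate 2 (-0.73, adjusted p = 0.0155).

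The aerial libraries varied more than the root libraries for 8 of the 10 members, and for 86.4% of all protein-coding loci. The median SD of log2 CPM over the members was 0.11 in root and 0.32 in aerial libraries, and over all protein-coding loci it was 0.13 in root and 0.34 in aerial libraries. The exceptions were FPS1, with a coefficient of variation of 3.42% in root and 2.15% in aerial libraries, and GPP1, with 19.5% in root and 4.36% in aerial libraries. Aerial replicate 2 was the lowest aerial library for 8 members, all but FPS1 and GPP2, whereas it was the lowest for 27% of protein-coding loci, a comparison made after the values had been seen. Leaving it out raised the number of members with an adjusted p below 0.05 to 6, with GUT2 and DAK1 added, and the share of protein-coding loci past the threshold to 45.4%. Leaving out root replicate 1 lowered these to 0 members and 17.6% of loci.

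**Figure D3:**
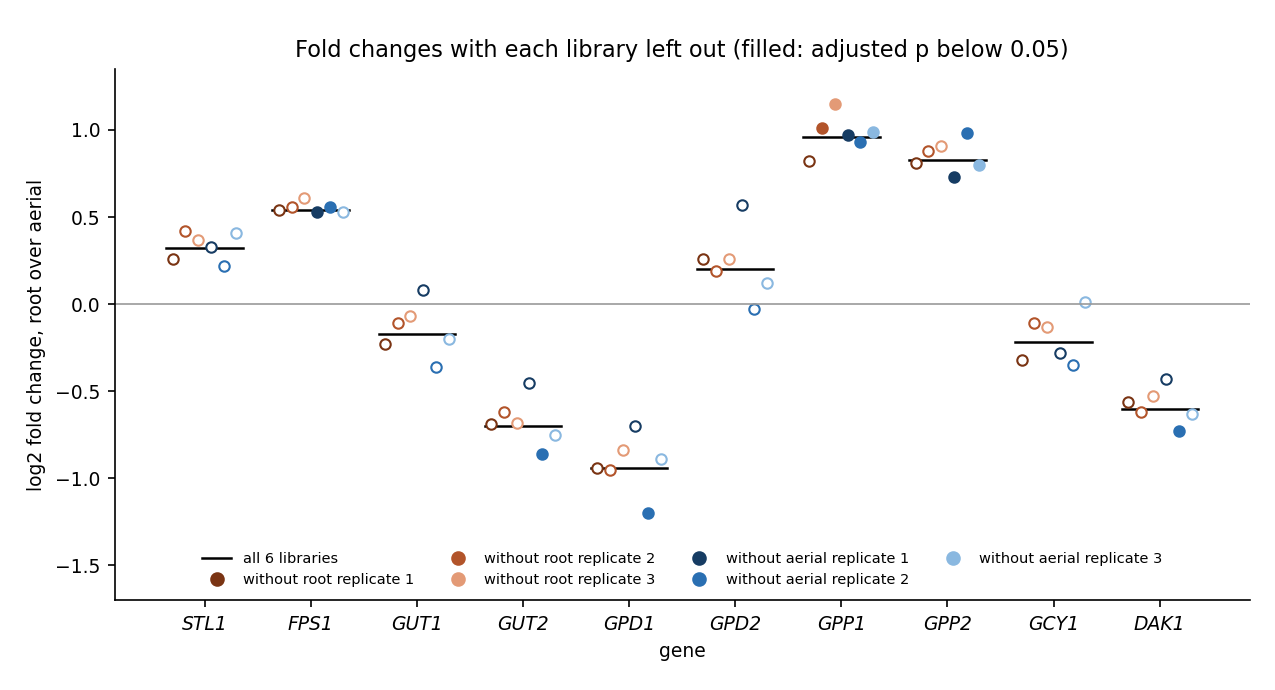
Log2 fold change, root over aerial, of each glycerol gene with all 6 libraries (black line) and with each library left out in turn (points, a color for each library), filled where the adjusted p was below 0.05. The points of GUT1, GPD2 and GCY1 cross 0, and of the fits with a library left out only that without aerial replicate 2 keeps the adjusted p of GPD1 below 0.05.

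Levels of different genes were compared per kilobase of coding length. In root libraries GPP1 had the highest level, at 1789.9 ± 349 CPM per kb (SD, n = 3), followed by GPP2 at 1141 ± 41, GPD1 at 452 ± 32.8, GUT2 at 333 ± 17.5, GUT1 at 284 ± 22.3, GPD2 at 196 ± 14.4, DAK1 at 149.6 ± 11.8, STL1 at 122 ± 10.3, GCY1 at 105 ± 13.6 and FPS1 at 68.7 ± 2.35 CPM per kb. Neighbours in this order did not overlap over the 3 libraries, except STL1 and GCY1. In aerial libraries the order was GPP1 at 919 ± 40 CPM per kb, GPD1 at 870.1 ± 308, GPP2 at 640.4 ± 113, GUT2 at 539.6 ± 148, GUT1 at 319 ± 95.1, DAK1 at 227 ± 46, GPD2 at 171 ± 69.5, GCY1 at 122 ± 31.1, STL1 at 97.8 ± 12.7 and FPS1 at 47.3 ± 1.02 CPM per kb. There, each gene down to STL1 overlapped with the neighbour above it, and only FPS1 stood apart, as the lowest. In root libraries both phosphatase genes lay above all other members without overlap, while in aerial libraries the range of GPD1 overlapped with those of both.

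Ratios of counts within a library do not depend on library size, and the balance of isozymes was compared this way. GPD1 had 2.23, 2.04 and 1.9 times the counts of GPD2 in root replicates 1, 2 and 3 and 4.09, 4.24 and 5.46 times in aerial replicates 1, 2 and 3. No aerial library overlapped with a root library. The log2 ratio was 1.04 ± 0.12 in root and 2.19 ± 0.23 in aerial libraries (SD, n = 3 each), a difference of -1.15, or a ratio 2.22-fold higher in aerial. The two-sided exact permutation test gave p = 0.1, the smallest that 3 against 3 libraries allow, and 0.2 after Benjamini-Hochberg adjustment over the 4 ratios. The ratio of GPP1 to GPP2 was 1.81, 1.56 and 1.31 in root and 1.7, 1.15 and 1.56 in aerial libraries, which overlapped (difference of log2 ratios 0.10, exact permutation p = 0.6, adjusted 0.8). For GCY1 and its paralog YPR1 the ratio was 1.05, 0.932 and 1.02 in root and 0.695, 0.866 and 0.802 in aerial libraries, 1.27-fold higher in root without overlap (difference 0.35, exact permutation p = 0.1, adjusted 0.2). DAK2, the paralog of DAK1, had 1, 0 and 2 counts in root and 2, 1 and 1 counts in aerial libraries, too few for its ratio to be read (exact permutation p = 1). After the values had been seen, the summed phosphatase genes were also set against the summed dehydrogenase genes of synthesis. GPP1 and GPP2 together had 3.23, 2.6 and 2.56 times the counts of GPD1 and GPD2 in root libraries and 0.662, 1.6 and 0.906 times in aerial libraries, with no overlap and no test.

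**Figure D4:**
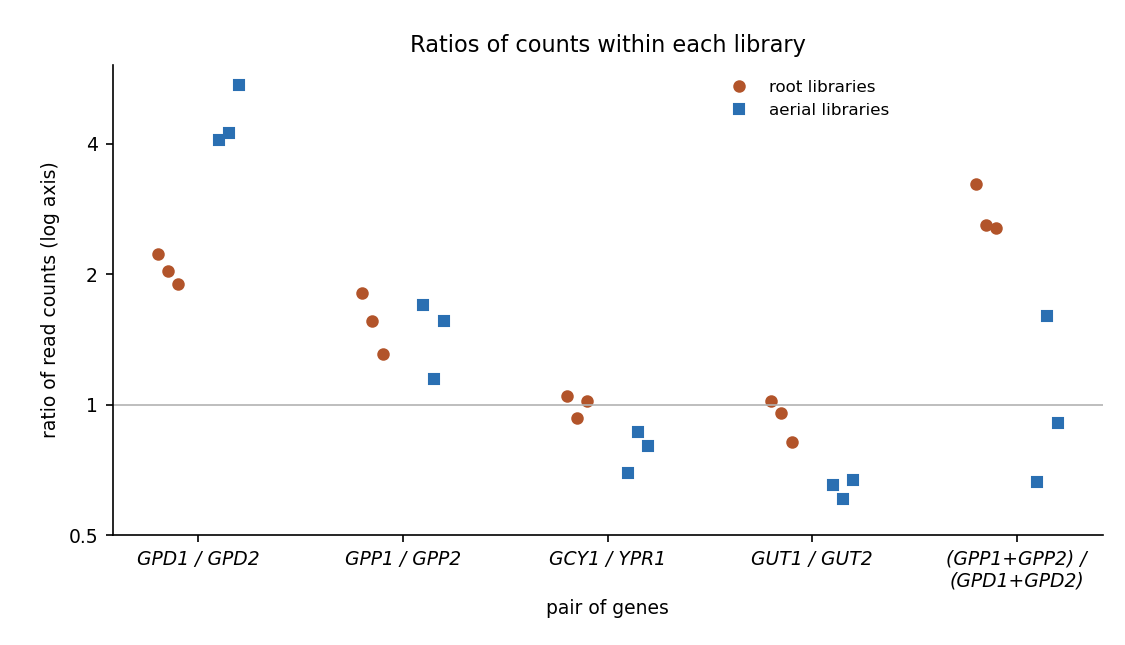
Ratios of read counts within each library on a log axis, for 5 pairs of genes or summed genes, in root libraries (circles) and aerial libraries (squares), with a grey line at equal counts. GPD1 over GPD2 is higher in all aerial libraries, the other ratios except GPP1 over GPP2 are higher in all root libraries, and GPP1 over GPP2 overlaps.

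Other genes around glycerol were read from the same fit. Of 7 other glycerol genes, 5 were tested, 2 were lower in root, none was higher and 3 did not pass, with a median log2 fold change of -0.58. Among all protein-coding loci 35.1% passed in either direction, near the share of this list, and 16.9% were lower in root. When root replicate 1, 2 or 3 was left out, 0 of the 5 passed, and the share of all protein-coding loci that passed fell to 17.6, 20.9 and 20.3%. RGC1, a regulator of the Fps1 channel, averaged 154 ± 11.6 CPM in root and 256 ± 32.5 CPM in aerial libraries (log2 fold change -0.73, adjusted p = 0.0176), so this gene was lower in root while FPS1 was higher. ASK10, the paralog of RGC1 with the same known role, averaged 294 ± 37 CPM in root and 252 ± 51.6 CPM in aerial libraries (0.23, adjusted p = 0.462). GUP1, a membrane-bound acyltransferase of lipid anchor remodelling, averaged 79.3 ± 3.05 CPM in root and 127 ± 19.6 CPM in aerial libraries (-0.68, adjusted p = 0.0191). Its paralog GUP2 averaged 6.99 ± 1.24 CPM in root and 10.2 ± 2.86 CPM in aerial libraries (-0.54, adjusted p = 0.156). YPR1 averaged 98.2 ± 8.08 CPM in root and 146 ± 38.5 CPM in aerial libraries (-0.58, adjusted p = 0.0772). AQY3, a channel of the same family as FPS1, had 1, 1 and 0 counts in root and 1, 4 and 2 counts in aerial libraries and was not tested, like DAK2.

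Glycerol 3-phosphate is also the backbone of phospholipids and triacylglycerol. Of 4 genes listed around glycerol 3-phosphate in lipids, 3 were tested and 2 were lower in root, against 16.9% of all protein-coding loci. GPT2, an acyltransferase that uses glycerol 3-phosphate, averaged 174 ± 14.3 CPM in root and 330 ± 53.6 CPM in aerial libraries (log2 fold change -0.92, adjusted p = 0.00896). GDE1, which releases glycerol 3-phosphate from glycerophosphocholine, averaged 64.7 ± 5.3 CPM in root and 126 ± 19.5 CPM in aerial libraries (-0.96, adjusted p = 0.00518). Among 4 electron and triose partners, the external NADH dehydrogenases of mitochondria, which oxidize cytosolic NADH, changed in opposite directions. NDE1 averaged 784 ± 42.9 CPM in root and 433 ± 93.2 CPM in aerial libraries (0.86, adjusted p = 0.0207), and NDE2 averaged 245 ± 30 CPM in root and 537 ± 185 CPM in aerial libraries (-1.13, adjusted p = 0.0155). In each library NDE1 had 3.31, 3.7 and 2.69 times the counts of NDE2 in root replicates 1, 2 and 3 and 0.604, 1.51 and 0.622 times in aerial replicates 1, 2 and 3, a ratio chosen after its values had been seen. Of this list 2 passed in the main fit, where 35.1% of all protein-coding loci did, and 0 when root replicate 1, 2 or 3 was left out. In those 3 fits 17.6, 20.9 and 20.3% of protein-coding loci passed.

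Regulators were examined as lists too. The high osmolarity glycerol (HOG) pathway is the kinase cascade that induces glycerol synthesis, and of its 19 genes 1 was higher, 2 were lower and 16 did not pass, with a median of -0.15, against 18.2% higher and 16.9% lower among all protein-coding loci. HOG1, its terminal kinase, averaged 176 ± 8.35 CPM in root and 98.3 ± 2.3 CPM in aerial libraries (log2 fold change 0.84, adjusted p = 0.00568). SKO1, a transcription factor on which Hog1 acts, had a log2 fold change of -0.76 (adjusted p = 0.00978), and SSK1, the response regulator of the Sln1 branch, of -0.67 (adjusted p = 0.0185). With upper quartile normalization 7 genes of this list passed. The number was 5 when aerial replicate 1 was left out and 1 when root replicate 1 or 3 was. Of 13 regulators of glycerol use, 1 was higher and 4 were lower in root, with a median of -0.12, and their share past the threshold is close to the 35.1% of all protein-coding loci. INO2, an activator of phospholipid genes, was higher (0.57, adjusted p = 0.0492). Lower in root were RSF1, a factor of respiratory growth (-1.36, adjusted p = 0.0054), and CAT8 and SIP4, activators of gluconeogenic genes (-0.99, adjusted p = 0.00773, and -0.85, adjusted p = 0.0123). ADR1 did not pass the test (-0.34, adjusted p = 0.319). Of these regulators, 2 passed without root replicate 1, 2 or 3, fits in which 17.6, 20.9 and 20.3% of all protein-coding loci passed.

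Of 12 known targets of Adr1 and Cat8, 6 were higher and 2 were lower in root, with a median of 0.44, against 18.2% higher and 16.9% lower among all protein-coding loci. The genes with the largest increases were MLS1, malate synthase (2.44), FBP1, fructose bisphosphatase (1.62), and SFC1, a carrier of succinate and fumarate (1.53), and the decreases were in POX1, acyl-CoA oxidase (-1.81), and CTA1, peroxisomal catalase (-1.33), each a log2 fold change with an adjusted p between 0.00114 and 0.0106. The targets that did not pass were ACS1 (-0.87, adjusted p = 0.109), ADH2 (-0.39, adjusted p = 0.559), ALD4 (-0.14, adjusted p = 0.766) and IDP2 (0.0, adjusted p = 0.998). GUT1, which Adr1 is also known to activate, did not pass the test. Of 12 general and osmotic stress targets, 9 were lower in root, which 16.9% of all protein-coding loci were, and none was higher, with a median of -1.64. They were led by HSP26, a small heat shock protein (-2.95), SSA4, an Hsp70 chaperone (-1.96), and HSP104, a disaggregase (-1.96). The rest of the list did not pass the test, namely HSP12 (-0.91, adjusted p = 0.125), GRE2 (-0.32, adjusted p = 0.344) and ENA1 (0.31, adjusted p = 0.385). The study had already listed the 9 lower genes as higher in aerial cells from the same libraries. Both lists were chosen with such results known, so their shares are descriptions and no independent support. The summed CPM of these stress genes was 17078, 13616 and 15069 in root replicates 1, 2 and 3 and 48828, 24592 and 49927 in aerial replicates 1, 2 and 3. The aerial replicate 2 library, lowest of the aerial libraries in this sum, was also the lowest for 8 of the 10 members, GPP1 (higher in root) as well as GPD1 (lower in root) among them. The part of this stress signal in the differences of these members was not tested.

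**Figure D5:**
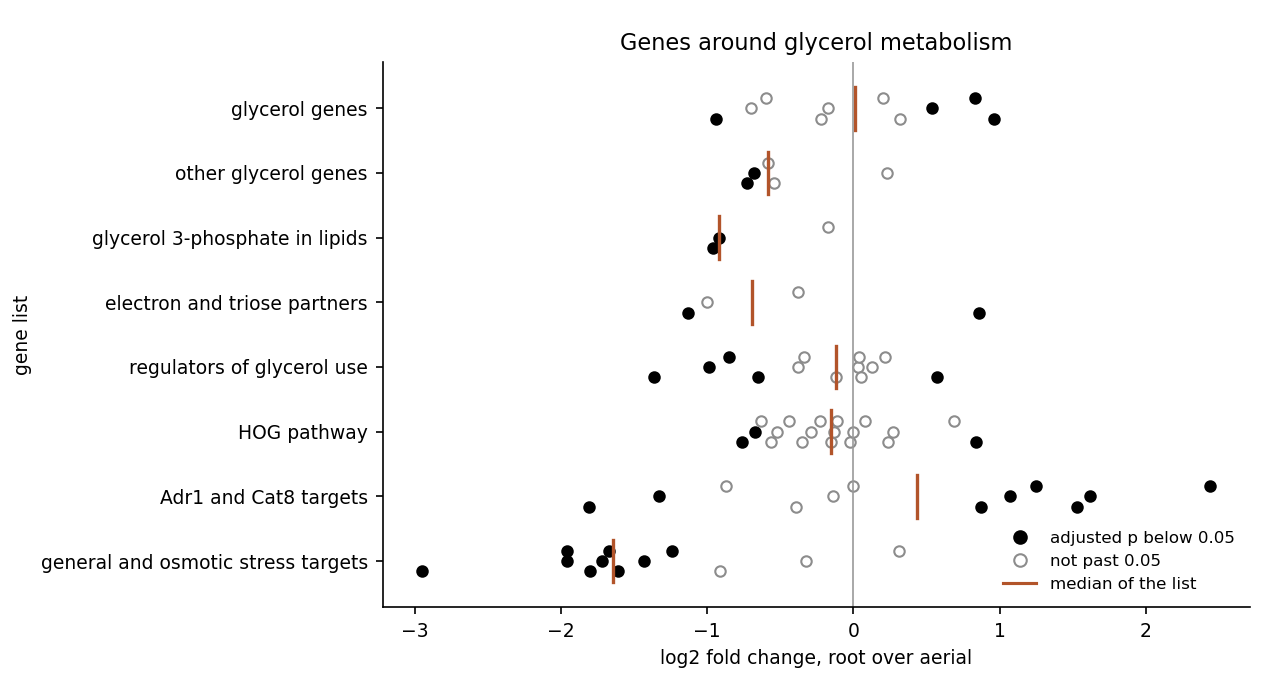
Log2 fold change, root over aerial, of each tested gene in 8 lists, from the glycerol genes at the top to the stress targets at the bottom, filled where the adjusted p was below 0.05, with a vertical bar at each list's median. Glycerol genes lie on both sides of 0, while all 9 filled points among the stress targets are negative. The lists were chosen with earlier results of these data known.

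The genes whose pattern over the 6 libraries was most like that of STL1, GUT1 and GUT2 were found from log2 CPM, centred on the mean of each gene, by the root mean square of the differences. For STL1 they included ESBP6, a transporter-like protein (0.0447), and MDH2, cytosolic malate dehydrogenase (0.054), against a median of 0.435 over all protein-coding loci. For GUT1 they were WTM1, a transcriptional modulator (0.0415), ALD4, mitochondrial aldehyde dehydrogenase (0.0474), and YFR018C (0.0632), against a median of 0.471. For GUT2 they were GSY2, glycogen synthase (0.0579), GUD1, guanine deaminase (0.0663), and YMR253C (0.0732), against a median of 0.536. All of these genes were picked as the closest among the protein-coding loci tested, over only 6 libraries. Values far below the median therefore follow from the choice, and shared regulation was not tested.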

How the data were processed

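Strand-specific RNA sequencing libraries of 3 root and 3 aerial samples were compared. After depletion of ribosomal RNA and 15 PCR cycles, the authors mapped paired reads of 100 bases to SacCer3 (R64) with TopHat2 2.0.14 and used featureCounts for strand-specific counting, and the deposited counts per locus are whole numbers without normalization. How reads matching several loci were treated is not given in the sources used here. A line that names no locus, with 2 to 6 counts per library (1.45e-05 to 3.64e-05% of counts), was left out.

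All 10239 loci were fitted together in edgeR 4.0.16 (R 4.3.3) with filterByExpr, TMM factors (0.871 to 1.09), glmQLFit and glmQLFTest, with no covariate, and 7971 loci were tested, all 10 members among them. Loci were taken as protein-coding by the form of their systematic name, and 5917 of the 6558 so named were found in the R64 annotation. The SE is the absolute log2 fold change divided by the square root of F. A pseudocount of 0.5 was added to counts for the isozyme ratios, which were compared by exact permutation tests. Levels between genes were compared as CPM per kb of coding length. Replicates are labelled as separate samples, no library repeated another within counting error, and the p-values measure the spread between these samples. The counts of a library limit precision only for DAK2, AQY3 and GIT1, each with 0 to 4 counts.

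The alternatives were DESeq2 1.42.0, glmTreat against a fold change of 1.2, summed counts of GPP1 and GPP2, a pseudocount of 2, replicate number as a block, each library left out in turn, scaling by library sizes alone, by upper quartiles, by DESeq2-type size factors or by TMM on protein-coding loci, and a filter of 10 counts in every library or none.

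The members and gene lists were chosen with earlier results of these data known. All members are named, every gene of the list of other glycerol genes, up to 3 genes in each direction of every other list (adjusted p below 0.05, largest change), and the 3 genes most like STL1, GUT1 and GUT2. Also named are ADR1 and the genes that did not pass among the Adr1 and Cat8 targets and the stress targets. A gene among those most like STL1 and a start window are not reported here. Positions and sequences are from RefSeq's R64 genome and annotation, and identities are of pairwise alignments of coding sequences.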

Additional observations from a re-analysis of the deposited data

How the results depend on the processing

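The 4 members with an adjusted p below 0.05 became 2 with glmTreat against a fold change of 1.2, 2 with the replicate number as a block, 6 with DESeq2 (3 higher and 3 lower in root), and 0 to 6 when a library was left out. The share of protein-coding loci past the threshold was 28.1% with glmTreat, 33.3% with the block, 36.7% with DESeq2 and 17.6 to 45.4% when a library was left out. The number that also reached a fold change of 2 was 0, became 1 with upper quartile normalization (GPD1), and was 0 to 1 when a library was left out. The block took the adjusted p of GPD1 to 0.0598 and of FPS1 to 0.084. Of the 9 pairs of a root and an aerial library, the same-numbered ones had deviations from their group means correlated at -0.142, 0.14 and -0.044. Not every library correlated best with its own number. With 3 libraries per cell type, these correlations cannot decide whether same-numbered samples came from the same plates. The sources used here do not say so either, and the main fit treated the samples as unpaired. FPS1 also missed the threshold with library sizes alone (adjusted p = 0.0784) and with no filter (0.0522). DAK1 passed with upper quartile normalization (0.0475) and library sizes alone (0.0442), and GUT2 with library sizes alone (0.0314).

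Of 152 member fold changes under alternatives, 3 changed sign. GUT1 was 0.08 without aerial replicate 1, GPD2 was -0.03 without aerial replicate 2 and GCY1 was 0.01 without aerial replicate 3, within ranges of -0.36 to 0.08, -0.03 to 0.57 and -0.35 to 0.01 over the libraries left out. The log2 ratio of GPP1 to GPP2, root minus aerial, was -0.02 without root replicate 1 and -0.07 without aerial replicate 2 (range -0.07 to 0.22), and that of DAK1 to DAK2 was 0.22 and 0.54 without root replicates 1 and 3 and 0.13 without aerial replicate 2 or 3 (range -0.76 to 0.54). The ratios of GPD1 to GPD2 and of GCY1 to YPR1 kept their sign throughout, from -1.23 to -1.02 and from 0.26 to 0.42 with a library left out, and the block left them at -1.15 and 0.35. With libraries left out, the count past the threshold was 1 to 5 for the HOG pathway list, 2 to 5 for the regulators, 0 to 3 for the other glycerol genes and for the electron and triose partners, 1 to 2 for the lipid genes, 5 to 9 for the Adr1 and Cat8 targets and 6 to 11 for the stress targets, each lowest count without a root library, and the block left 3 of the regulators. The causes of these changes were not tested.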
